A study of Mus musculus with 4 samples.

Results

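Interleukin 6 (IL-6), the related cytokines LIF, oncostatin M and IL-11, their receptors, and the STAT3 step that follows them were examined in dermal white adipose tissue (dWAT), the fat layer around the lower ends of hair follicles. The 10 genes were chosen by name, for their place in this pathway and with earlier results of these data known, from the 22913 genes listed for each library. They were 4 ligands (Il6, Lif, Osm and Il11), 4 receptors (Il6ra, Il6st, Lifr and Osmr), the transcription factor Stat3 and its feedback target Socs3. All 10 were found in the files.

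The dWAT was microdissected from C57BL/6 mice, and RNA sequencing gave 1 library for each of 4 groups. OTD is dWAT of old mice of 18 months in telogen, the resting phase of the hair cycle, and YTD is that of young mice of 2 months in telogen. OAD and YAD are dWAT of old and young mice in anagen, the growth phase, which was induced by depilation. The age field of the labels gives 18 months for YTD and 2 months for OAD, against the titles, the descriptions and the study's methods, and the titles were followed here. The methods give 20 mice per group for sequencing and do not state how these were combined, and a single library holds no measure of how mice vary. With 1 library per group there is no replicate, no test and no error between samples, and each comparison below is one between single libraries. In such mixed tissue, fewer cells of a type and less RNA per cell cannot be told apart. No genotype or agent other than depilation is given, and the anagen libraries differ from the telogen ones by depilation as well as by phase.

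The values are FPKM, fragments mapped to a gene per kilobase of its length and per 1000000 fragments of the library. The libraries hold roughly 15100000 to 20400000 fragments, estimated from the lowest FPKM, and intervals given below are exact 95% intervals that cover counting error only. A change is a difference of log2(FPKM + 1), a scale on which low FPKM move less than their ratio does, and a gene was said to have risen or fallen where this was at least 1 in size. Adipocyte markers were clear in each library, with all 9 listed markers at 1 FPKM or more. Muscle, hair shaft and mitochondrial transcripts took unequal shares of the libraries. Mitochondrially encoded genes alone took 44.7% to 52.7% of all FPKM in telogen and 14.4% to 18.3% in anagen.

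IL-6, LIF, oncostatin M and IL-11 all signal through a shared receptor chain, gp130, which Il6st encodes. IL-6 and IL-11 first bind their own receptor chains, whereas LIF and oncostatin M pair gp130 with the LIF receptor or the oncostatin M receptor. The JAK kinases bound to these chains then phosphorylate STAT3, which moves to the nucleus and induces target genes, among them Socs3, whose product binds gp130 and JAK and shuts the signal off. In fat, IL-6 is made by stromal, immune and fat cells and is a familiar cytokine of inflammation.

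The promoters of Il6 and Socs3 are shown because these were the members that rose with age in telogen. Both windows are the 250 bases before the RefSeq start of the gene on GRCm38.p6, read 5′ to 3′ on the strand of the gene, and capitals mark matches to the motifs searched. The Il6 window is chr5:30012864-30013113 on the plus strand, and the Socs3 window is chr11:117969367-117969616 on the minus strand. The genes as listed with the FPKM start downstream of the RefSeq starts, at 30013161 for Il6 and 117969186 for Socs3. The bases between were not searched.
Il6: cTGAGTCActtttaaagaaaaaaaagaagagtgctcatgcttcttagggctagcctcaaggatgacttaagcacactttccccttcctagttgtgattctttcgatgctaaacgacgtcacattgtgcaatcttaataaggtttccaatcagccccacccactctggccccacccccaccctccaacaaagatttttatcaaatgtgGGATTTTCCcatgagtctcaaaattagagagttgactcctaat
Socs3: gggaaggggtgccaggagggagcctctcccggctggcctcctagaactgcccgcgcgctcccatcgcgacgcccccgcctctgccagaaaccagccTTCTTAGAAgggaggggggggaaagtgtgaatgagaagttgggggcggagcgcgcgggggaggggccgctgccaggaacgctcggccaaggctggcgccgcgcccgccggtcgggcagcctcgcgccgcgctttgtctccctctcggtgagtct
The motifs, each searched on both strands, were TTCNNNGAA for STAT factors, TGANTCA for AP-1, TGACGTCA for the CRE that CREB binds, and GGNNTTTCC for NF-kappa B. In the Il6 window the capitals are an AP-1 match at -249 to -243 and an NF-kappa B match at -43 to -35, counted back from the start. In the Socs3 window they are a STAT match at -154 to -146. Of the 32851 RefSeq windows of this length, 7.02% held the STAT letters, 6.75% those of AP-1, 1.55% the CRE and 4.93% those of NF-kappa B. Of the 11 windows of the 9 members matched in the RefSeq table, the others with a match were those of Il11 and Lif, each with an AP-1 match. A match describes the letters and does not show that a factor binds.

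The receptors and the 2 signal genes were far more abundant than the ligands. Il6st led the members in each library, and its 111 FPKM in OTD lay above 96.9% of all genes. In OTD it was followed by Socs3 at 35.7 FPKM and Stat3 at 31.8, whose counting intervals of 33.9 to 37.6 and 30.5 to 33.1 did not overlap. Osmr at 12.1 and Lifr at 11.7 FPKM came next in OTD and differed by less than counting error. Il6ra at 7.09 FPKM and Il6 at 6.19 also had overlapping intervals, of 6.39 to 7.84 and 5.08 to 7.43. Osm, Lif and Il11 closed the order in OTD, all under 0.4 FPKM. In the other libraries Socs3 stood under Stat3, and Il6 was under 0.3 FPKM. Il11 moved up from last in OTD to 8 of 10 in YTD and 7 of 10 in OAD and YAD, and in YTD Lifr stood at 3 of 10, above Socs3 by less than counting error.

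**Figure D1:**
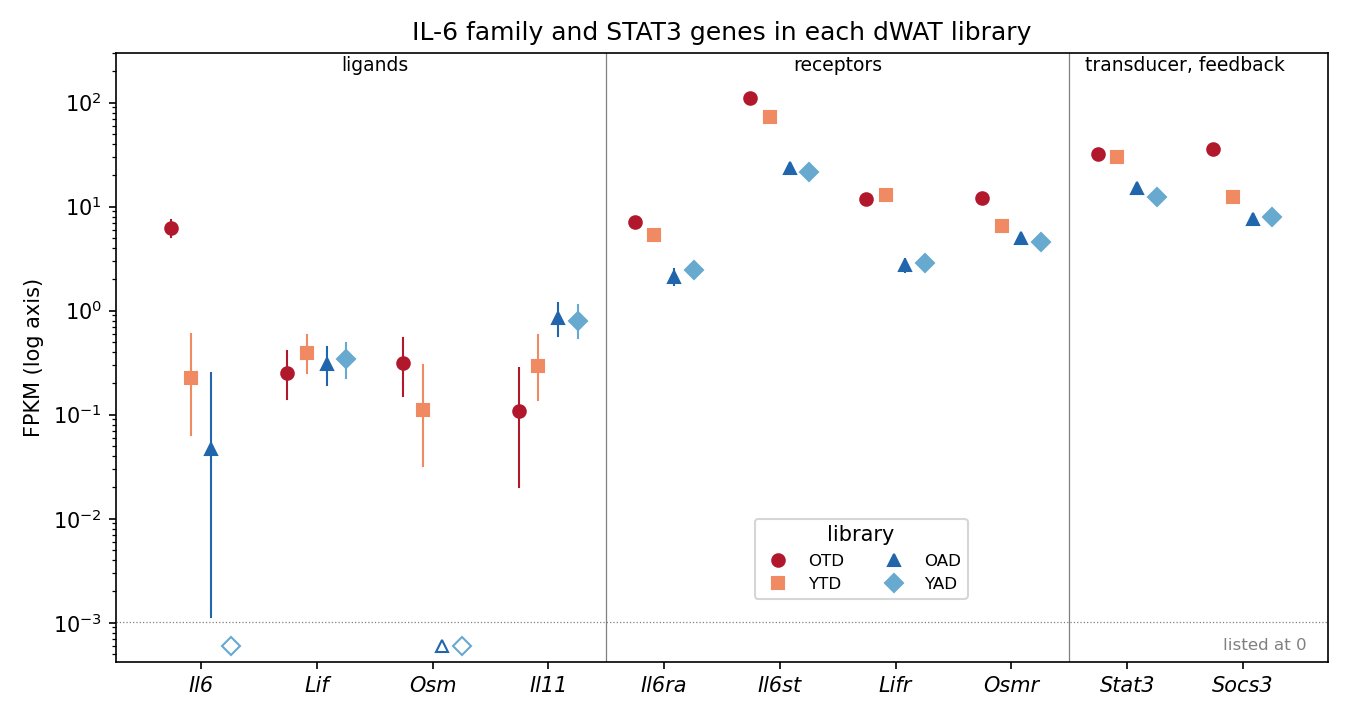
FPKM of the 10 members (log axis) in OTD, YTD, OAD and YAD, with each library as a point and exact 95% counting intervals as bars, and open points for genes listed at 0. Il6 stands out in OTD at 6.19 FPKM against 0.225 in YTD, while Il6st, Il6ra, Lifr and Stat3 are lower in both anagen libraries than in both telogen libraries.

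Of the ligands, Il6 differed most between the libraries. Il6 (ENSMUSG00000025746, chr5:30013161-30019968) was at 6.19 FPKM in OTD, 0.225 in YTD and 0.0470 in OAD and was listed at 0 in YAD. These values correspond to about 112 fragments in OTD, 4 in YTD and 1 in OAD. Il6 RNA was thus measured with some precision in the old telogen library and was near or under the level of a few fragments in the others.

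Osm encodes oncostatin M, a cytokine made mainly by macrophages, neutrophils and T cells. It was at 0.311 FPKM in OTD and 0.110 in YTD, about 11 and 4 fragments, and was listed at 0 in OAD and YAD. For Osm at a count of 0 the upper 95% limit is 0.0828 FPKM in OAD and 0.0798 in YAD. Both telogen values lay above these limits, as did the interval of 0.152 to 0.545 FPKM in OTD, while that of 0.0318 to 0.299 in YTD reached under them.

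Lif encodes leukemia inhibitory factor, which acts through the LIF receptor and gp130. It was at 0.254 FPKM in OTD and 0.393 in YTD, and 0.304 in OAD and 0.339 in YAD, each about 16 to 28 fragments. The 4 intervals of Lif overlapped, and no order of the libraries can be read from them. Osm and Lif lie side by side on chromosome 11, on the same strand and 16530 bases apart, and their profiles over the libraries differed, Osm being listed at 0 in anagen and Lif not.

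Il11 encodes IL-11, a cytokine of stromal cells. It ran the other way, at 0.108 FPKM in OTD and 0.291 in YTD, and 0.843 in OAD and 0.799 in YAD, or about 3, 9, 32 and 32 fragments. Both anagen values of Il11 lay above both telogen values.

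Among the receptors, Il6st (ENSMUSG00000021756, chr13:112464070-112510086) was at 111 FPKM in OTD and 72.9 in YTD, and 23.7 in OAD and 21.3 in YAD. Il6ra, the chain that binds IL-6 itself, was at 7.09, 5.38, 2.12 and 2.44 FPKM in the same order. Both chains of the IL-6 receptor were thus lower in the anagen libraries, and gp130 RNA exceeded that of the IL-6 chain in each library. The ratio of Il6st to Il6ra FPKM was 15.7 in OTD and 13.6 in YTD, and 11.2 in OAD and 8.73 in YAD.

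Lifr and Osmr encode the partner chains of gp130 for LIF and oncostatin M and are neighbours on chromosome 15, on opposite strands and 215644 bases apart. Lifr was at 11.7 FPKM in OTD and 12.8 in YTD, and 2.73 in OAD and 2.85 in YAD. Osmr was at 12.1, 6.58, 4.95 and 4.58 FPKM in that order. The balance of the 2 chains differed between the libraries. The ratio of Lifr to Osmr FPKM was 0.970 in OTD and 1.95 in YTD, and 0.552 in OAD and 0.622 in YAD.

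Stat3 (ENSMUSG00000004040, chr11:100885098-100939540), the transcription factor of the pathway, was at 31.8 FPKM in OTD and 29.8 in YTD, and 15.0 in OAD and 12.3 in YAD. Its end overlaps that of Stat5a on the other strand, and fragments from that stretch cannot be told apart without strand, which is not given in the sources used here. Socs3 (ENSMUSG00000053113, chr11:117966079-117969186) was at 35.7 FPKM in OTD and 12.4 in YTD, and 7.63 in OAD and 8.02 in YAD. Stat3 thus separated the phases and hardly the ages, whereas Socs3 was highest in OTD alone. The ratio of Socs3 to Stat3 FPKM was 1.12 in OTD and 0.415 in YTD, and 0.510 in OAD and 0.652 in YAD.

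To compare the ages in telogen, OTD was set against YTD. Il6 and Socs3 rose in OTD, and none of the members fell. Of all genes above 0 in either library, 3.6% passed the threshold, 1.67% higher and 1.93% lower in OTD, beside 2 of the 10 members, both higher. The median log2 change of the members was 0.29, with 7 higher and 3 lower, beside a median of -0.03 over the 17230 genes.

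Il6 rose by 2.55 on the log2 scale, the 15th largest rise of the 22913 genes. Its FPKM was 27.6-fold higher in OTD than in YTD, with a counting interval of 10.1 to 99.2 that is wide because YTD held about 4 fragments. Socs3 rose by 1.46, the 86th largest rise, and was 2.89-fold higher, with an interval of 2.60 to 3.21. The ligand and the feedback gene thus both rose in OTD, and Stat3 between them differed by 0.09.

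The receptors other than Lifr were higher in OTD without passing the threshold. Osmr differed by 0.79 on the log2 scale and was 1.84-fold higher in OTD, with an interval of 1.66 to 2.04. Il6st differed by 0.61 and was 1.53-fold higher, with an interval of 1.46 to 1.60. Il6ra differed by 0.34 and was 1.32-fold higher, with an interval of 1.13 to 1.55. None of these intervals spans equality, but they cover counting and say nothing of variation between mice.

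The other members differed little between OTD and YTD. Lifr differed by -0.12, and this changed to 0.04 when mitochondrial and muscle genes were left out. Osm differed by 0.24, a 2.83-fold higher FPKM whose interval of 0.773 to 11.2 spans equality. Lif differed by -0.15 and Il11 by -0.22, both with intervals that span equality.

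**Figure D2:**
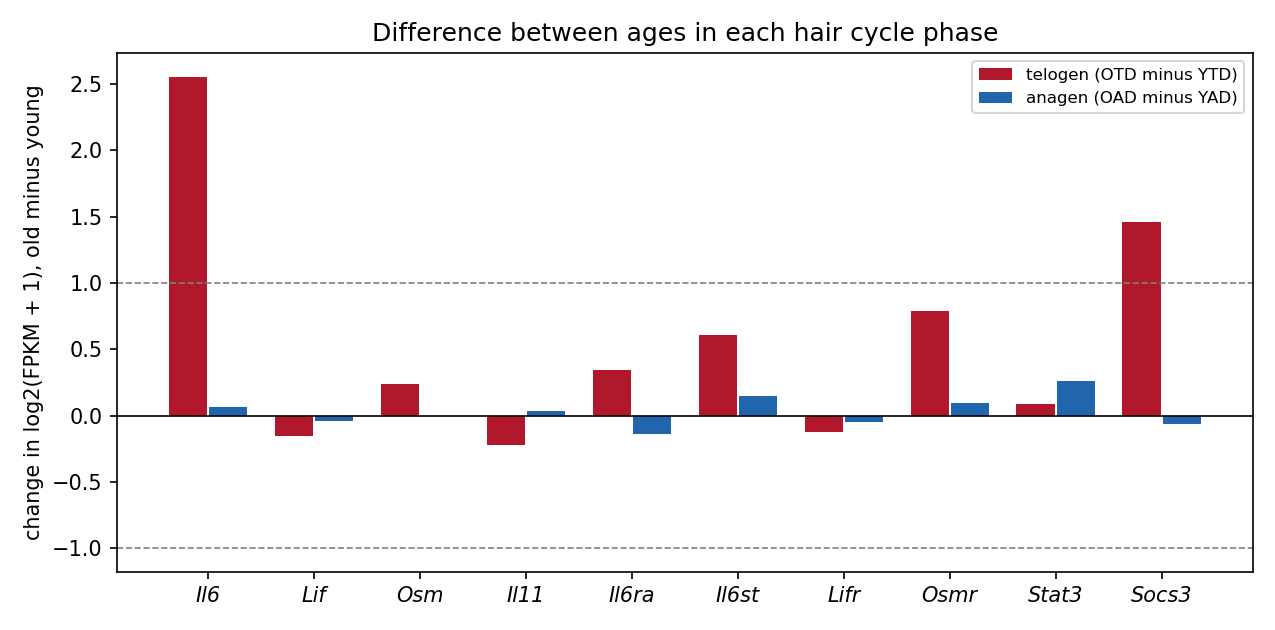
Change in log2(FPKM + 1) of each member between old and young mice, in telogen (red) and in anagen (blue), from 1 library per group, with dashed lines at the threshold of 1 in either direction. Il6 at 2.55 and Socs3 at 1.46 pass the line in telogen, and in anagen the changes lie between -0.14 and 0.26.

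Marker genes of other cell types also differed between OTD and YTD. The summed FPKM of 9 macrophage markers was 817 in OTD and 499 in YTD, and 103 in OAD and 131 in YAD, and in telogen 8 of the 9 were higher in OTD. That of 7 endothelial markers was 311, 190, 72.2 and 57.3 FPKM in the same order, and all 7 were higher in OTD than in YTD. For 7 neutrophil markers the sums were 140, 117, 142 and 58.7 FPKM, mostly from S100a8, while the defining marker Ly6g was listed at 0 in 3 of the 4 libraries. In telogen all 6 neutrophil markers above 0 were higher in OTD, 2 past the threshold, with a median of 0.47. Of 9 markers of fibroblasts and fat progenitors 8 were higher in the old telogen library, at a median change of 0.37.

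Of 5 T cell markers, none reached 1 FPKM in any library, and their sum was 0.186 to 1.37 FPKM. Immediate early genes, which respond within minutes to stress and handling of tissue as well as to cytokines, summed to 1492 FPKM in OTD and 505 in YTD, and 954 in OAD and 751 in YAD. All 23 of these were higher in OTD than in YTD, and 19 passed the threshold, beside 1.67% higher over all genes. The 9 skeletal muscle markers and the 7 hair shaft markers above 0 were all lower in OTD, at medians of -0.65 and -1.35. Of 7 keratinocyte markers 6 were lower, and of 6 melanocyte markers 4, at medians of -0.42 and -0.23. Of 9 adipocyte markers 6 were higher in OTD, at a median of 0.26. The macrophage, endothelial, neutrophil, fibroblast and immediate early lists thus ran with Il6 and Socs3 in telogen, and the muscle, hair shaft and keratinocyte lists against them. The part of these lists in the result was not tested.

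**Figure D3:**
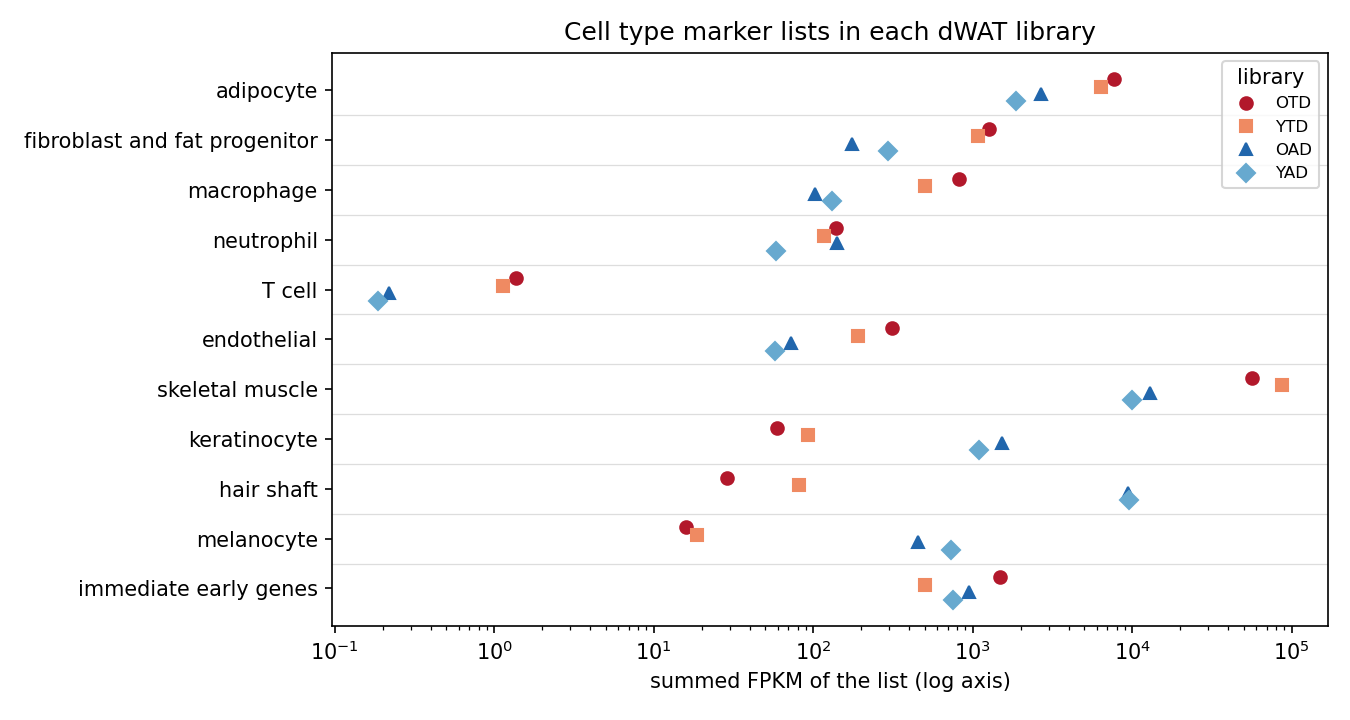
Summed FPKM (log axis) of cell type marker lists and of immediate early genes in each library. Macrophage and endothelial markers are highest in OTD (817 and 311 FPKM), muscle markers are highest in YTD (87346 FPKM), and hair shaft markers are at 9419 and 9547 FPKM in the anagen libraries against 28.7 and 81.5 in telogen.

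In anagen, OAD was set against YAD, and none of the 9 members above 0 passed the threshold. Of all genes above 0, 1.18% passed it, 0.727% higher and 0.454% lower in OAD. The members lay between -0.14 for Il6ra and 0.26 for Stat3, with 5 higher and 4 lower and a median of 0.03, beside 0.00 over all genes. The age difference of Socs3 seen in telogen was thus not seen in the anagen libraries. Il6, at about 1 fragment in OAD and 0 in YAD, was too low there to compare the ages. With single libraries the difference between the phases could not be tested.

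Stat3 was 1.22-fold higher in OAD than in YAD, with a counting interval of 1.12 to 1.32. Il6st was 1.11-fold higher as deposited, with an interval of 1.03 to 1.20, but lower after TPM. For Socs3 the log2 change was -0.07, and the FPKM ratio of OAD to YAD was 0.950 with an interval of 0.826 to 1.10. No fold is given for Il6, which was at 1 fragment and 0, nor for Osm, which was listed at 0 in both.

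These small differences depend on how the libraries are scaled. Rescaling FPKM to the same sum in each library (TPM) moved the median of expressed genes by -0.21 in this comparison, and Il6st, Osmr and Il11 then changed sign. Over the scalings tried, Stat3 differed by 0.05 to 0.28 and Socs3 by -0.28 to -0.05.

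To compare the phases, the anagen libraries were set against the telogen libraries at each age; these comparisons use the same 4 libraries as those between ages and are not independent of them. As deposited, 3 of the 10 members fell in young mice and 7 of 10 in old mice, and none rose. The background was high, since of the genes above 0 in young mice 32.7% passed the threshold, 16.1% higher and 16.7% lower in anagen, and in old mice 31.7%, 16.1% higher and 15.6% lower. The median change of the members was -0.50 in young and -1.26 in old mice, beside 0.02 and 0.01 over all genes.

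In young mice, Lifr fell by 1.85 on the log2 scale, Il6st fell by 1.73 and Stat3 fell by 1.21. Il6st was 3.42-fold lower in YAD than in YTD, with an interval of 3.21 to 3.65. Lifr was 4.50-fold lower, with an interval of 3.83 to 5.31. The chain for LIF and the shared chain thus had the largest falls, and Stat3 was 2.42-fold lower. Il6ra differed by -0.89, Socs3 by -0.57 and Osmr by -0.44. Il6 and Osm, at about 4 fragments each in YTD and 0 in YAD, had counting intervals that span equality.

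In old mice, Il6 fell by 2.78, Il6st by 2.19, Socs3 by 2.09, Lifr by 1.77, Il6ra by 1.37, Osmr by 1.14 and Stat3 by 1.04. As deposited, every receptor and both signal genes were past the threshold at this age. For Il6 the FPKM was 132-fold lower in OAD than in OTD, with an interval of 24.3 to 5502, since OAD held about 1 fragment. Socs3 was 4.68-fold lower, with an interval of 4.18 to 5.25, and Osm, at about 11 fragments in OTD and 0 in OAD, was at least 3.09-fold lower at the limit of its interval.

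Il11 had the higher FPKM in anagen at both ages. It was 7.78-fold higher in OAD than in OTD, with an interval of 2.71 to 44.2, and 2.75-fold higher in YAD than in YTD, with an interval of 1.23 to 6.28. At these low FPKM the log2 changes of 0.73 and 0.48 stayed under the threshold. Lif differed by 0.06 in old and -0.06 in young mice.

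The scaling mattered most between the phases, where the hair shaft and mitochondrial shares of the libraries also differed most. Rescaling to TPM raised the median change of expressed genes by 0.75 in young and 0.56 in old mice. On that scale 1 member passed the threshold in young mice, Lifr at -1.15, and 4 in old mice, Il6 at -2.49, Il6st at -1.59, Socs3 at -1.51 and Lifr at -1.25. Of all genes above 0, 33.4% then rose and 7.23% fell in young mice, and 27.8% rose and 8.48% fell in old mice. In young mice Osmr, Socs3 and Lif then changed sign, to 0.28, 0.20 and 0.18. Without the genes of melanocytes and of the hair shaft, including keratin-associated proteins, there was 1 member higher in old mice, Il11 at 1.01, and there were 4 lower. Over all genes above 0 the shares in old mice were then 32.6% higher and 6.97% lower.

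Relative to the median of expressed genes under the same scaling, Il6st, Lifr and Stat3 stayed low at both ages. Many genes did so. In young mice 22.1% of expressed genes lay at least 1 under this median as deposited and 23.5% after TPM, and in old mice 21.2% and 22.2%. In young mice Il6st was at -1.76 relative to the median as deposited and at -1.69 after TPM. Stat3 was at -1.24 and -1.19 in the same way, and Lifr at -1.88 and -1.93. In old mice Il6st was at -2.24 and -2.19, Lifr at -1.82 and -1.86 and Stat3 at -1.09 and -1.05. Il6 at -2.83 and -3.10, Socs3 at -2.14 and -2.12, Il6ra at -1.42 and -1.49 and Osmr at -1.19 and -1.20 also stayed low there. In young mice Il6ra, Socs3 and Osmr lay nearer the median, at -1.02, -0.58 and -0.51 after TPM. Il11 in old mice lay above the median, at 0.69 as deposited and 0.30 after TPM. In young mice Il11 was at 0.45 as deposited and at 0.02 after TPM. Without genes of melanocytes and the hair shaft, Il11 was at -0.02 in young and 0.24 in old mice.

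**Figure D4:**
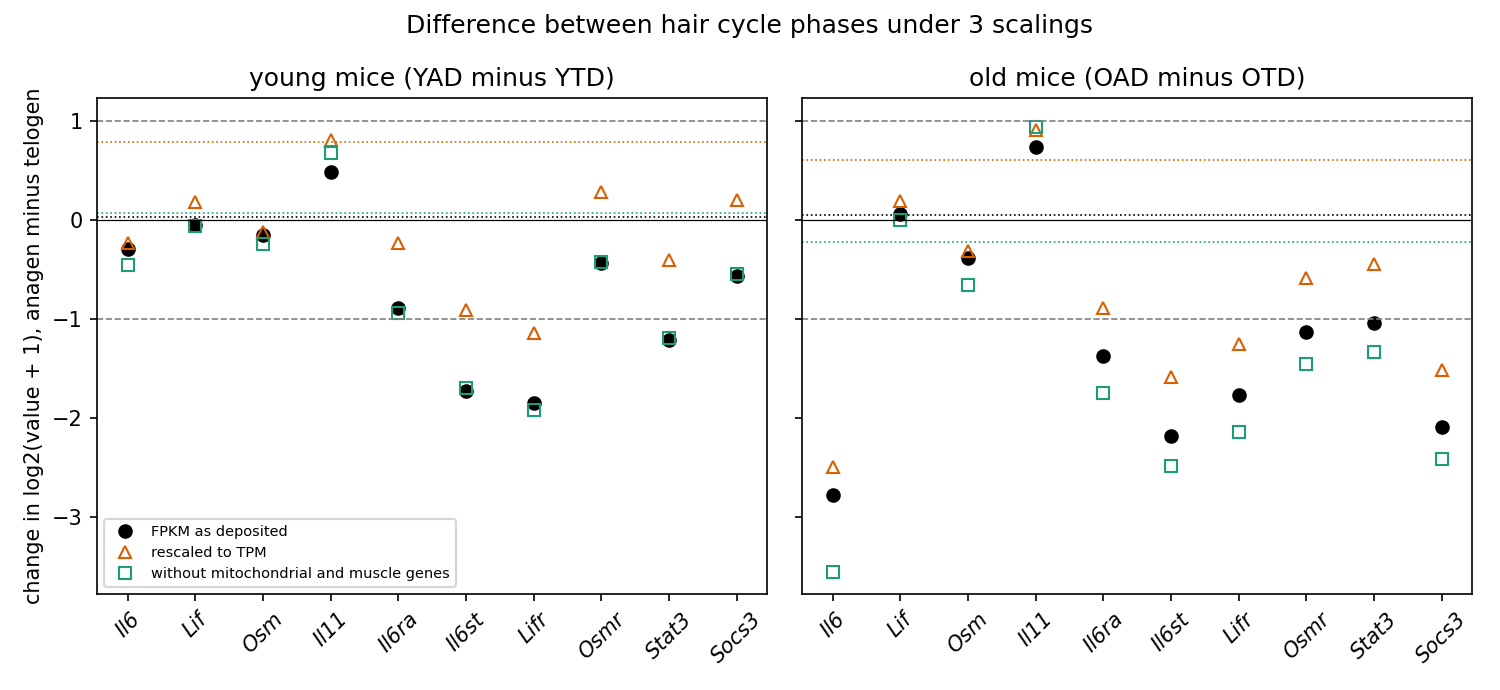
Change in log2(value + 1) of each member from telogen to anagen in young mice (left) and old mice (right), as deposited (filled), after rescaling to TPM (triangles) and without mitochondrial and muscle genes (squares), with dotted lines at the median of expressed genes on each scale and dashed lines at the threshold of 1. TPM moves the median up, Il6 and Osm in young mice hardly move with it, and Il6st, Lifr and Stat3 stay below the dotted line of the same colour at both ages.

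Several cell types fell with the receptors between telogen and anagen. As deposited, all 9 macrophage markers and all 7 endothelial markers were lower in anagen at both ages, and the 9 adipocyte markers summed to 7733 FPKM in OTD and 6413 in YTD against 2676 in OAD and 1867 in YAD. The 9 markers of fibroblasts and fat progenitors summed to 1271 and 1080 FPKM in telogen against 174 and 294 in anagen. Hair shaft and keratinocyte markers ran the other way, the latter at 59.1 and 92.3 FPKM in telogen against 1532 and 1092 in anagen. Melanocyte markers summed to 15.9 and 18.6 FPKM in telogen against 453 and 736, and skeletal muscle markers to 56377 and 87346 against 13022 and 9924. The macrophage, endothelial, adipocyte, fibroblast and muscle lists were thus lower in anagen, as the receptors were, and the hair shaft, keratinocyte and melanocyte lists higher, and their part in the result was not tested.

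Other genes of the pathway were taken from 7 lists, with 81 genes found in the data. In telogen 11 of the 77 above 0 passed the threshold, 9 higher and 2 lower in OTD, beside 3.6% of all genes, and in anagen 4 of 79 did, all higher in OAD, beside 1.18%. Their median change was 0.06 in telogen and 0.05 in anagen. The 9 that rose in telogen and the 4 in anagen were all STAT3 target genes, and both that fell were negative regulators.

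None of the other ligands and receptors of the family passed the threshold between ages. Cntf, which encodes ciliary neurotrophic factor, was at 8.94 FPKM in OTD and 4.24 in YTD, and 1.28 in OAD and 1.44 in YAD, a change of 0.92 in telogen. Ctf1, which encodes cardiotrophin 1, was at 11.2, 15.5, 6.64 and 7.33 FPKM, and Clcf1 and Il31 were listed at 0 in all 4 libraries. These 8 ligands had a median change of 0.14 in telogen over the 6 above 0.

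Il11ra1, the receptor of IL-11, was at 42.9 FPKM in OTD and 46.4 in YTD, and 70.4 in OAD and 65.8 in YAD, and is uncertain where fragments are shared with its near-identical copy Il11ra2. Cntfr, the receptor of CNTF, rose from 5.15 FPKM in OTD to 43.6 in OAD and from 9.58 in YTD to 47.3 in YAD, by 2.86 and 2.19 on the log2 scale. The receptors of IL-11 and CNTF thus ran against Il6st, Lifr and Il6ra between the phases.

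Of the JAK kinases and the other STATs, none of the 10 passed the threshold between ages, with medians of -0.05 in telogen and -0.01 in anagen. From telogen to anagen 6 of 10 fell at each age, beside 16.7% over all genes in young and 15.6% in old mice. The median of the 10 was -1.23 in young and -1.21 in old mice. After TPM, 1 fell and 1 rose in young mice, beside 7.23% lower and 33.4% higher over all genes. None passed the threshold in old mice. Jak1, the main kinase of gp130, was at 33.3 FPKM in OTD and 40.0 in YTD, and 10.9 in OAD and 11.4 in YAD, while Stat6, the factor of IL-4 signalling, held 16.1, 16.0, 17.3 and 16.0 FPKM.

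Of 18 negative regulators and adaptors, 2 fell in OTD against YTD and none rose, beside 1.93% lower and 1.67% higher over all genes. Cish, a member of the SOCS family that STAT5 induces, was at 5.19 FPKM in OTD and 15.97 in YTD, and fell by 1.45 on the log2 scale. Socs7 was at 6.32 FPKM in OTD and 14.2 in YTD, and fell by 1.05. Both are relatives of Socs3 and differed from it in direction. Leaving out mitochondrial and muscle genes kept 1 of the 2 past the threshold.

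The phosphatase Ptpn11, which binds gp130 and opens the MAPK branch, was at 21.8 FPKM in OTD and 33.9 in YTD, and 37.9 in OAD and 37.9 in YAD. Its partner Grb2 was at 31.5, 40.9, 25.3 and 25.0 FPKM. The proteases Adam10 and Adam17, which shed the IL-6 receptor from the cell surface, differed by 0.32 and 0.14 between ages in telogen. Adam10 was at 20.2 FPKM in OTD and 16.0 in YTD, and Adam17 at 8.34 and 7.50.

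STAT3 target genes, with 30 genes listed and 29 of them found, were the longest of the 7 lists. In telogen 9 of the 29 above 0 rose and none fell, beside 1.67% higher and 1.93% lower over all genes, with a median of 0.37. In anagen 4 rose and none fell, beside 0.727% higher and 0.454% lower over all genes. The anagen median was 0.20 as deposited and -0.03 after TPM. Many of these genes also answer to other factors. Of the 9, Fos rose by 3.31, Junb by 2.55 and Myc by 1.33, and these 3 are also immediate early genes. S100a9, which rose by 2.93, from 0.656 FPKM in YTD to 11.7 in OTD, is a neutrophil gene as well. S100a8, in both of these lists and far more abundant, hardly differed in telogen, at 123 FPKM in OTD and 114 in YTD.

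The other 5 were Lcn2, which encodes the iron-binding lipocalin 2 and rose by 1.57, Timp1, an inhibitor of matrix metalloproteinases, which rose by 1.18, Fgl2 by 1.14, the adhesion molecule Icam1 by 1.08 and the kinase Pim1 by 1.06. Lcn2 was at 16.3 FPKM in OTD and 4.82 in YTD. Timp1 was at 15.2 and 6.14 FPKM, and in anagen at 1.76 and 2.39. Without the genes that the list shares with the immediate early and neutrophil lists, 5 of 24 rose, beside 1.67% over all genes. Their median was 0.30 over the 24.

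The targets that rose in anagen were S100a9 by 2.43, Saa3 by 1.34, S100a8 by 1.17 and Fos by 1.17. S100a8 and S100a9 encode the calprotectin subunits of neutrophils, and Saa3 an acute phase protein. After TPM, 2 genes of the 81 rose in OAD and 1 fell, beside 0.59% higher and 0.994% lower over all genes. Cebpb, a factor of fat cell differentiation and of acute phase genes, was at 70.7 FPKM in OTD and 70.4 in YTD, and 262 in OAD and 148 in YAD. Hp, which encodes haptoglobin and had the highest mean FPKM of the list, was at 297, 449, 371 and 275 FPKM.

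Of 9 other receptors that signal through STAT3, none passed the threshold between ages. Il10rb, a chain of the IL-10 receptor, was at 22.6 FPKM in OTD and 13.5 in YTD, and 9.98 in OAD and 7.96 in YAD, a telogen change of 0.70. Egfr, the epidermal growth factor receptor, was at 3.75, 3.65, 13.2 and 14.0 FPKM and rose in anagen by 1.69 in young and 1.58 in old mice.

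Between the phases, 10 of the 77 genes of the 7 lists rose and 14 fell in young mice, and 7 of 79 rose and 19 fell in old mice. Over all genes above 0 the shares were 16.1% higher and 16.7% lower in young mice and 16.1% higher and 15.6% lower in old mice. After TPM the lists held 24 risen and 3 fallen genes in young mice and 20 and 7 in old mice, beside 33.4% higher and 7.23% lower, and 27.8% higher and 8.48% lower, over all genes.

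**Figure D5:**
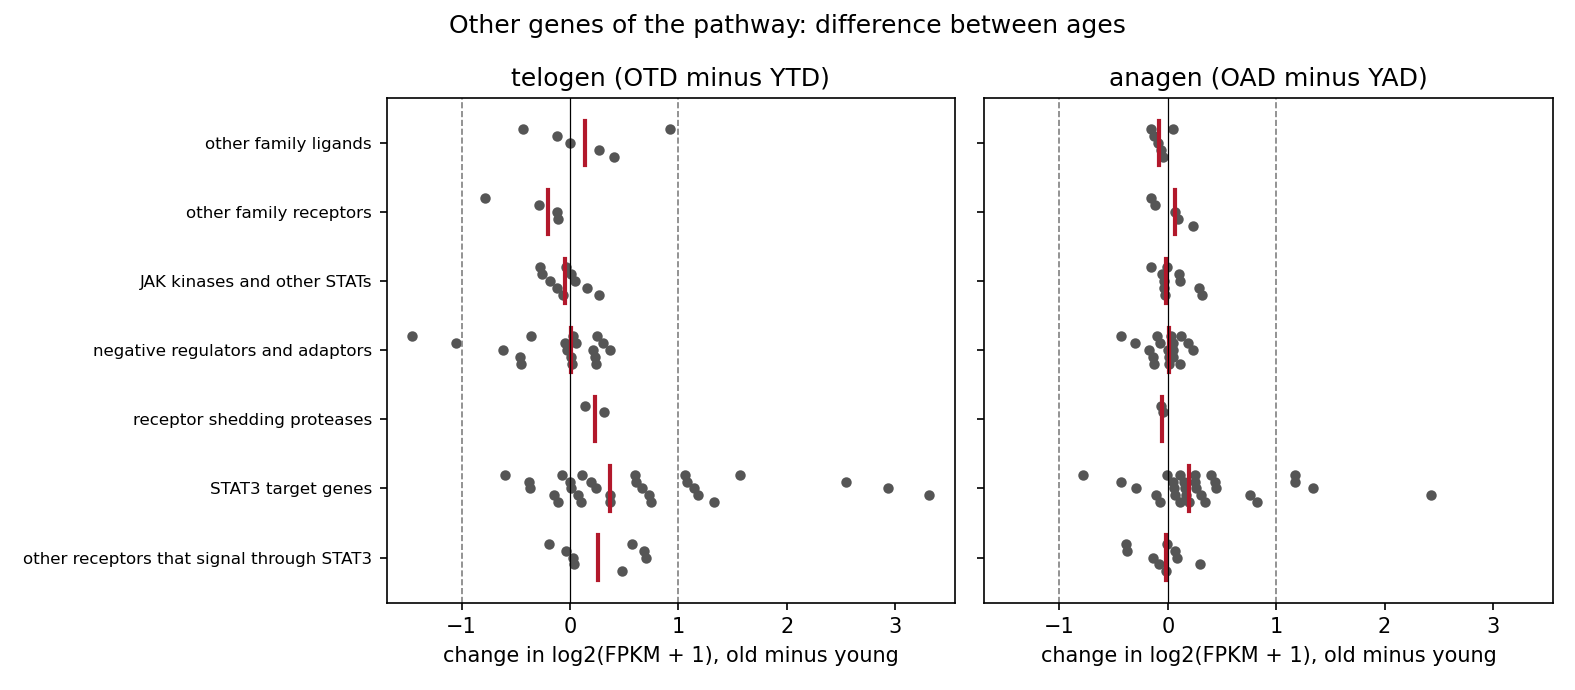
Change in log2(FPKM + 1) between old and young mice of the genes in 7 lists of the pathway, in telogen (left) and anagen (right), with each gene as a point, the median of a list as a red bar and dashed lines at the threshold of 1. STAT3 target genes reach 3.31 in telogen and 2.43 in anagen, and Cish and Socs7 lie below -1 in telogen.

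Genes with the profile most like that of a member were looked for among 14203 genes of at least 1 FPKM, by the Euclidean distance between centred log2(FPKM + 1) values over the 4 libraries. With 4 points per gene, many genes come close by their levels alone, and the distances describe these libraries only. Nearest to Il6 were a locus listed outside the annotation on chromosome 16 (chr16:29979476-29981462) at a distance of 0.200, Apold1 at 0.325 and Plac9a at 0.497. Apold1, an endothelial immediate early gene, was at 29.4 FPKM in OTD and 2.89 in YTD, and 3.31 in OAD and 2.95 in YAD. On the log2(FPKM + 1) scale its contrast between OTD and the other libraries was like that of Il6, as its choice by nearest profile implies. The likeness does not extend to ratios of FPKM, which are larger for Il6.

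Nearest to Socs3 were Itgax at 0.178, Gpr1 at 0.193 and Plaur at 0.209. Itgax encodes the integrin CD11c of dendritic cells and macrophages and was at 3.59 FPKM in OTD and 0.532 in YTD, and 0.175 in OAD and 0.142 in YAD. Plaur, the urokinase receptor, was at 13.6, 4.25, 2.85 and 2.29 FPKM. Nearest to Il6st were Ldb2 at 0.0334, AU021092 at 0.0567 and Cped1 at 0.0826, and nearest to Stat3 were Oat at 0.0540, Heg1 at 0.0636 and Dpm1 at 0.0645. Ldb2, which encodes a LIM domain binding protein, was at 14.6 FPKM in OTD and 9.14 in YTD, and 2.31 in OAD and 2.06 in YAD. Its profile follows that of Il6st, as its choice by nearest profile implies.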

How the data were processed

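RNA sequencing measured dWAT of OTD, YTD, OAD and YAD, 1 library each. The deposited values are FPKM of 22913 genes in each library, and positions are on GRCm38. Per the submitters' processing notes, bcl2fastq, TopHat2 and GRCm38 were used, and the counting tool and the annotation are not given in the sources used here. A symbol was found for 21750 genes, and 747 entries lie outside the annotation.

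The FPKM were used as deposited, with a pseudocount of 1, no filter and a threshold of 1 on the log2 change. With 1 library per group no test was run. Listed lengths are coding lengths (97.0% are multiples of 3), but low FPKM gather at whole fragments only with full transcript lengths. Of the values under 1.5 fragments, 75.9% to 84.7% lay near 1 fragment with transcript lengths and 26.3% to 38.1% with the listed lengths. Fragments were therefore estimated from GENCODE M21 transcript lengths, not from the listed length as first planned, taking the shortest transcript whose coding length matches. Intervals of a ratio are conditional binomial (Clopper-Pearson), and those of an FPKM are exact Poisson, at 95%.

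The members, lists and tests were chosen with earlier results of these data known. The genes named are all members, list genes past the threshold between ages with an FPKM of at least 1, the 2 highest by mean FPKM of each list, and the 3 nearest profiles of Il6, Il6st, Socs3 and Stat3. Genes named beyond this rule were chosen after their values were seen. Of 187 listed genes, 183 were found. The steps were tested on simulated data with counting error only and equal depth, in which only genes of higher FPKM were changed. Changes at low FPKM, as of the ligands, and differences of scaling between libraries were not covered. Python 3.11.15, numpy 2.4.6, pandas 2.3.3, scipy 1.17.1 and matplotlib 3.10.9 were used.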

Additional observations from a re-analysis of the deposited data

How the results depend on the processing

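The 8 counts of genes past the threshold were recomputed under other pseudocounts, a filter, 4 rescalings and a threshold of 1.5, and 48 of the 64 recomputed counts stayed within 1.5 times the reported one. Each count adds both directions, so one that stayed can hide a turn in direction. Between phases the other pathway genes turned from 10 higher and 14 lower to 24 and 3 after TPM in young mice. In old mice they turned from 7 and 19 to 20 and 7, and both counts are among the 48. With a pseudocount of 0.01 the members past the threshold became 4 in telogen between ages, 3 higher and 1 lower, the latter Il11 at -1.35. In anagen it became 1 between ages, Il6, which at about 1 fragment against 0 is too low to compare. Between phases in young mice it became 7, 1 higher and 6 lower, as also with 0.1. The other pathway genes became 17 in telogen, 13 higher and 4 lower, and 11 in anagen, 9 higher and 2 lower. With 0.1 they were 7 in anagen, 5 higher and 2 lower. Shares over all genes are not given for these pseudocounts or for the threshold of 1.5, so these counts have no background beside them. After TPM the members past the threshold were 1 in young and 4 in old mice between phases, and 1 in young mice when genes of melanocytes and the hair shaft were left out. With a threshold of 1.5 the members were 1 in telogen, Il6, and 4 in old mice between phases, and the other pathway genes were 4 in telogen, 1 in anagen, 12 in young and 13 in old mice. Il6 and Socs3 in telogen kept their direction and stayed past the threshold of 1 under all other alternatives, with Il6 at 2.34 to 4.72 and Socs3 at 1.44 to 1.65. A smaller pseudocount enlarges changes of low values and a higher threshold passes fewer genes by construction, and other causes were not tested. No member past the threshold as deposited changed sign. Without genes of melanocytes and the hair shaft, the other pathway genes past the threshold were 28 higher and 1 lower in young mice. In old mice they were 25 higher and 7 lower. Over all genes the shares were then 37.7% higher and 6.12% lower in young mice and 32.6% and 6.97% in old mice. No paired analysis was possible because each group has 1 library, and for the same reason no replicate could be left out. Depth limits Il6 outside OTD, Osm, and Il11 in telogen, which rest on 0 to 11 fragments.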
